A study of Mus musculus with 22 samples.

Results

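Mitochondrial ribosomal protein genes encode the protein part of the ribosome that works inside mitochondria. They were taken as the genes whose symbol is Mrpl or Mrps followed by a number, on probe sets that name 1 gene, with the probe set of the highest mean kept for each gene. This rule found 77 genes of the 19938 measured, carried by 85 of 21789 probe sets. Of the 77, 48 are named Mrpl and 29 Mrps. By their place in the ribosome, 50 belong to the large subunit, among them Mrps18a and Mrps30 despite their names, and 26 to the small subunit, while Mrps36 is a protein of the 2-oxoglutarate dehydrogenase complex that kept a ribosomal name. No member was lost to a filter on low signal, and 76 of the 77 lay at or above the median signal of all genes.

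The arrays profiled macrophages from the tibialis anterior muscle of C57B6/J mice that had received a cardiotoxin injection, which kills muscle fibres and sets off sterile inflammation and regeneration. CD45+ cells were taken from the muscle with magnetic beads at days 1, 2, 4 or 8 and sorted as Gr1+/Cx3cr1low cells (Ly6C+ F4/80low, here Gr1-positive) or Gr1-/Cx3cr1high cells (Ly6C- F4/80high, here Gr1-negative). Each of the 8 combinations of day and subset had 3 arrays, labelled as biological replicates, except Gr1-positive cells of day 8 with 1 array. No group came from uninjured muscle, all mice were of 1 strain, and the labels do not say how many mice went into an array. Age and sex were not given in the sources used here.

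Mitochondrial ribosomes translate the few messages of the mitochondrial genome, all of which encode subunits of the oxidative phosphorylation complexes, together with ribosomal RNAs made in the mitochondrion. Their proteins are all encoded in the nucleus, made in the cytosol and imported. Many descend from bacterial ribosomal proteins, and others are found in mitochondria only: 45 of the 77 were classed as having a bacterial homologue, 26 as specific to mitochondria and 6 were not classed. The promoters of such genes often carry sites for the nuclear respiratory factors NRF1 and GABP, the latter an ETS family factor. In macrophages, mitochondrial respiration is known to differ between inflammatory and repair-associated states.

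Promoter windows of 300 bases, 250 before and 50 after the start of the gene, were found for 68 of the 77 genes in RefSeq (GRCm38.p6), and 9 were not matched. Searched on both strands, the NRF1 motif, 2 runs of GCGC around an A and any base, was in 13 of the 68 windows (19.1%), against 4.78% of all 27025 promoter windows and 7.25% of the 15614 windows of genes on the array. The ETS letters CCGGAAG were in 24 (35.3%, against 9.12% and 12.5%), and the YY1 motif, AAGATGG followed by CGG, in 5 (7.4%, against 0.899% and 1.36%). None of these motifs is contained in another. The E-box CACGTG was in 5 (7.4%, against 7.24% and 8.38%), and TATAAA in 4 (5.9%, against 14.2% and 12.1%). A match is only a match of letters. The 200 bases before the start are shown for 4 genes. Mrpl52 had the largest day 8 decrease, Mrpl39 and Mrpl57 also fell, and the course of Mrps6 differed most from that of the family. Capitals mark the match, ETS for Mrpl52 (chr14:54426709-54426908, plus strand) and NRF1 for Mrpl39 (chr16:84735245-84735444, minus strand) and Mrpl57 (chr14:57826039-57826238, plus strand), and Mrps6 (chr16:92058136-92058335, plus strand) holds none of the 5 motifs. The 4 do not stand for the family. In the same stretch Mrps18b, Mrpl33 and Mrpl35, which also fell by day 8, hold none of the 5 motifs. Mrpl20, which fell too, holds only an E-box there. In the full windows of 300 bases, which the counts above use, Mrps18b and Mrpl33 hold the ETS letters and Mrpl35 the YY1 motif. The full window of Mrpl57 holds the ETS letters besides the NRF1 motif.
Mrpl52: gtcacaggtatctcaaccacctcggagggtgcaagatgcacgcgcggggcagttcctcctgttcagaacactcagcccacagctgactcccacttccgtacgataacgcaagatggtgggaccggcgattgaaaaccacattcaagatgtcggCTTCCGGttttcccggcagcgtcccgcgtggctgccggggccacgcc
Mrpl39: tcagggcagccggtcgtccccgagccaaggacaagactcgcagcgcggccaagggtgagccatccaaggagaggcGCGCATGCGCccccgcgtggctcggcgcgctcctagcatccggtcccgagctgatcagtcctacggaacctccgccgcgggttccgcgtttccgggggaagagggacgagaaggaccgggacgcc
Mrpl57: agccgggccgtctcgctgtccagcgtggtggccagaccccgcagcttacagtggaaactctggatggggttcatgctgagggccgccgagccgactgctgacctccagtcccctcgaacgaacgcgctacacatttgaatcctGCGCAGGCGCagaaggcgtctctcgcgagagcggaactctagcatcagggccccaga
Mrps6: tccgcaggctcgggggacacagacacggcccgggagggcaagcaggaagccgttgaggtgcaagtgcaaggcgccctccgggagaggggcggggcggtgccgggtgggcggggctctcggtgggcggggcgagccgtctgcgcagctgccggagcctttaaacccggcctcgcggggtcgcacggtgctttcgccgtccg

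The values are log2 signals from RMA, a method that corrects, normalizes and summarizes the probes of a set, so a difference of 1 is a doubling of signal. Array medians lay between 7.02 and 7.18, and the macrophage and monocyte markers, among them Csf1r, Adgre1 and Lyz2, averaged 11.5 to 11.99 on every array. Signals of different probe sets cannot be read as relative abundance, so each gene is compared with itself. Over all arrays the lowest means were those of Mrpl47 (7.30), Mrps30 (7.44) and Mrpl44 (7.54), and the highest those of Mrps21 (11.01), Mrpl52 (10.85) and Mrpl23 (10.75). In these bulk samples a lower signal from fewer cells of a type and from less RNA per cell cannot be told apart.

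As a group, the 77 genes peaked at day 2 and were lowest at day 8 in Gr1-negative cells. In Gr1-negative cells the mean of the 77 was 9.02 ± 0.12 (SD, n = 3) at day 1, 9.33 ± 0.13 at day 2, 9.10 ± 0.11 at day 4 and 8.71 ± 0.12 at day 8. In Gr1-positive cells it was 8.93 ± 0.06 at day 1, 9.13 ± 0.28 at day 2 and 9.01 ± 0.14 at day 4, and 8.64 on the single array of day 8. All 3 Gr1-negative arrays of day 8 (8.60 to 8.84) lay below every other Gr1-negative array. At day 2 the Gr1-positive array numbered 1 stood at 8.81, below its companions at 9.26 and 9.32. It was also below every day 1 array of that subset (the lowest at 8.89), so the Gr1-positive arrays of days 1 and 2 overlapped. The mean of all genes stayed between 7.57 and 7.66 on every array.

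**Figure D1:**
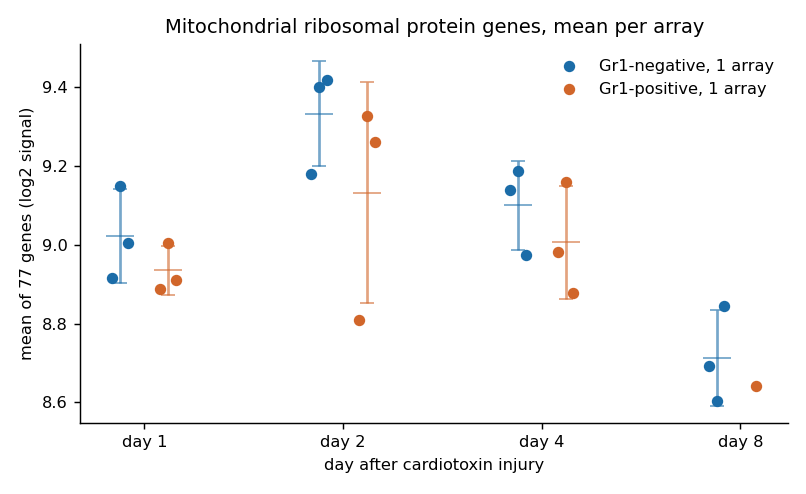
Mean log2 signal of the 77 mitochondrial ribosomal protein genes on each of the 22 arrays (points) by day and sorted subset, with the group mean and SD as bars where a group has 3 arrays. The day 8 arrays sit between 8.60 and 8.84, and the Gr1-negative arrays of day 2 between 9.18 and 9.42.

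The course was shared by most members. The day 2 mean was the highest of the 4 Gr1-negative days in 66 of the 77 genes (85.7%), against 30.8% of all genes and 31.7% of genes at or above the median signal. The day 8 mean was the lowest in 67 (87.0%), against 28.6% and 38.0%. Both held for 60 genes (77.9%), against 17.3% of all genes and 23.4% of genes at or above the median signal. In Gr1-positive cells, over days 1 to 4, day 2 was highest in 47 genes (61.0%), against 42.2% of all genes. These are counts of group means and carry no test.

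From day 1 to day 2 in Gr1-negative cells, 8 of the 77 genes rose and none fell, where 3.8% of all genes and 6.6% of genes at or above the median signal rose and 1.08% of all genes fell (limma, Benjamini-Hochberg adjusted p under 0.05 over all genes). The median difference of the 77 was 0.29, against 0.02 over all genes and 0.06 over genes at or above the median signal. Of the 77, 73 (94.8%) were above 0, against 61.6% of genes at or above the median signal. Of the 8, 7 belong to the large subunit, as do 50 of the 77, and a difference between the subunits was not tested. Mrpl22, whose bacterial homologue lines the exit tunnel for new protein chains, read 7.33, 7.60 and 7.58 at day 1 and 7.86, 8.46 and 8.38 at day 2. The groups did not overlap, and it rose by 0.73 ± 0.20 (SE, adjusted p = 0.0382). Mrpl48, a mitochondria-specific large subunit protein, went from 9.65, 9.86 and 9.72 to 10.15, 10.47 and 10.49 (0.63 ± 0.17, adjusted p = 0.0347), again without overlap. Mrpl16, a large subunit protein with a bacterial homologue, went from 8.47, 8.56 and 8.69 to 9.05, 9.20 and 9.19 (0.57 ± 0.14, adjusted p = 0.0246). All day 2 arrays lay above all day 1 arrays in 44 genes (57.1%), against 15.1% of all genes and 24.3% of genes at or above the median signal. The count rests on single arrays: it was 0 without the day 1 array numbered 1 or the day 2 array numbered 2 or 3, 3 without the day 1 array numbered 3, and 15 without the day 2 array numbered 1.

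In Gr1-positive cells the same step gave no calls with limma, where 0.16% of all genes rose and 0.13% fell. At an unadjusted p under 0.05, 17 of the 77 were higher and 1 lower, against 7.54% and 4.73% of all genes. The median difference was 0.18, against 0.06 over all genes. Without the day 2 array numbered 1, which was low for the family as a whole, 17 genes rose and the median was 0.37.

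From day 2 to day 4, 12 genes fell and none rose in Gr1-negative cells, where 6.69% of all genes and 12.1% of genes at or above the median signal fell and 8.15% of all genes rose. At 15.6%, the members' share is close to that of genes of like signal. This step shares its day 2 arrays with the step before. Mrps28, a small subunit protein, showed the largest decrease. It read 9.01, 9.16 and 9.18 at day 2 and 8.19, 8.27 and 7.86 at day 4, and so fell by 1.01 on the log2 scale (SE 0.13, adjusted p = 3.28e-05), about 2.01-fold. Mrps18b, 1 of 3 mammalian paralogues of a single bacterial protein, went from 10.34, 10.53 and 10.63 to 9.88, 9.84 and 9.63 and fell by 0.71 (SE 0.14, adjusted p = 0.00203). Mrpl20, which in bacteria takes part in building the large subunit, went from 9.32, 9.26 and 9.51 to 8.93, 8.89 and 8.36 and fell by 0.64 (SE 0.17, adjusted p = 0.0124). In none of the 3 did the days overlap. The paralogue Mrps18a, of the large subunit, fell by 0.31 (SE 0.10, adjusted p = 0.0313), while Mrps18c differed by -0.31 ± 0.18 (adjusted p = 0.279). Mrpl12, a protein of the large subunit stalk that is also known to bind the mitochondrial RNA polymerase, fell by 0.44 (SE 0.14, adjusted p = 0.0392). Leaving out 1 array of these days gave 5 to 11 calls, with 5 without the day 4 array numbered 3 and 6 without the day 2 array numbered 2 or 3, and 7 without the day 4 array numbered 1.

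Gr1-positive cells also had 12 genes that fell and none that rose between day 2 and day 4, where 7.44% of all genes and 13.3% of genes at or above the median signal fell and 11.8% of all genes rose. Here too the members' share of 15.6% is close to that of genes of like signal. Mrps28 read 8.50, 8.97 and 9.06 at day 2 and 8.04, 8.11 and 7.91 at day 4 and fell by 0.82 (SE 0.13, adjusted p = 0.000155). Mrps18b went from 10.05, 10.48 and 10.46 to 9.61, 9.97 and 9.49 and fell by 0.64 (SE 0.14, adjusted p = 0.00355). Mrpl39, a mitochondria-specific large subunit protein, went from 10.77, 10.71 and 10.65 to 10.20, 10.18 and 9.94 and fell by 0.60 (SE 0.09, adjusted p = 0.000101). None of these 3 overlapped between the days. The subsets share no arrays, but their same-numbered arrays deviate together at both days, and 7 of the 12 genes of each (58.3%) were called in both, near the 62.8% (Gr1-negative) and 56.4% (Gr1-positive) over all genes that fell: Mrpl20, Mrpl39, Mrps10, Mrps18a, Mrps18b, Mrps22 and Mrps28. For the difference between the subsets' steps, 0 of the 77 passed (limma), none did at an unadjusted p under 0.05, and 0.01% of all genes were higher and 0.00502% lower. The count was 23 without the day 2 array numbered 1, 4 without the day 2 array numbered 3 or the day 4 array numbered 1, 5 without the day 2 array numbered 2 and 6 without the day 4 array numbered 3. The median difference of the 77 was -0.10, against -0.06 over all genes, and it was 0.03 without the day 2 array numbered 2.

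From day 4 to day 8 in Gr1-negative cells, 25 genes fell and none rose, where 7.34% of all genes and 12.1% of genes at or above the median signal fell, and 3.17% of all genes rose. The median difference was -0.39, against 0.00 over all genes and -0.12 over genes at or above the median signal. Of the 77, 2 (2.6%) were above 0, against 33.1% of genes at or above the median signal. The large subunit held 21 of the 25 (of 50 members, median -0.46) and the small subunit 4 (of 26, median -0.31), a difference that was not tested. Mrps33, a mitochondria-specific small subunit protein, read 10.08, 10.02 and 9.80 at day 4 and 9.21, 9.12 and 9.28 at day 8. It fell by 0.76 (SE 0.17, adjusted p = 0.0104) without overlap. A second Mrps33 probe set fell by 0.65 (SE 0.15, adjusted p = 0.0153), and which of the pair reads a copy elsewhere in the genome, if either does, was not tested. Mrpl19, a large subunit protein with a bacterial homologue, went from 9.47, 9.42 and 9.30 to 8.71, 8.51 and 8.79 and fell by 0.73 (SE 0.14, adjusted p = 0.00431). Mrpl48 went from 10.40, 10.43 and 10.15 to 9.40, 9.51 and 9.98 and fell by 0.70 (SE 0.17, adjusted p = 0.0156), also without overlap. Mrpl58, which can free stalled ribosomes by releasing their peptide, fell by 0.70 (SE 0.16, adjusted p = 0.0143). All day 8 arrays lay below all day 4 arrays in 52 genes (67.5%), against 20.5% of all genes and 33.9% of genes at or above the median signal. The count of 25 was 5 without the day 4 array numbered 1, 10 without the day 4 array numbered 2, 6 without the day 8 array numbered 1 and 7 without the day 8 array numbered 2.

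**Figure D2:**
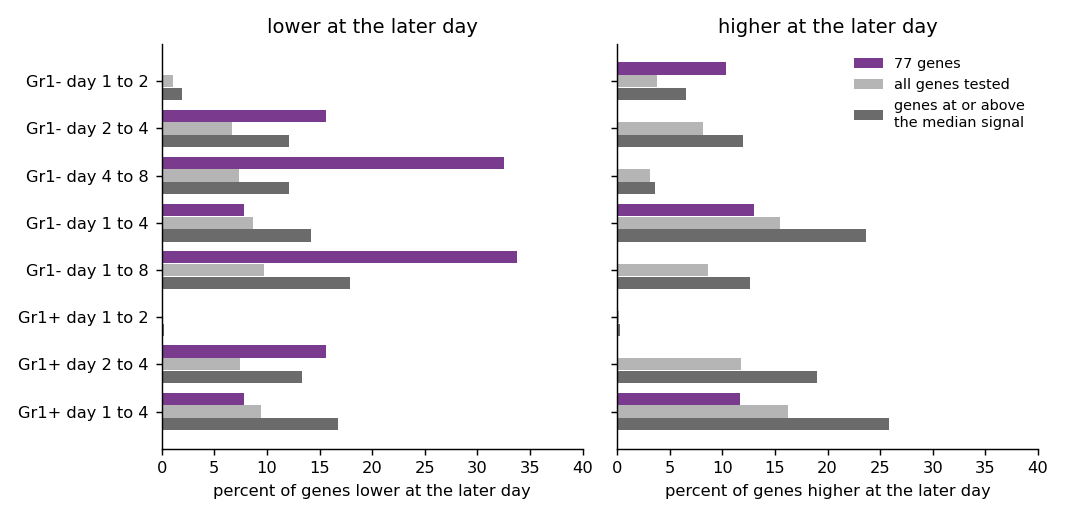
Percent of genes lower (left) and higher (right) at the later day of each step, at an adjusted p under 0.05, for the 77 genes, all 19938 genes and the genes at or above the median signal. The longest bars of the 77 are the decreases to day 8 in Gr1-negative cells, 32.5% from day 4 and 33.8% from day 1.

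Across the whole course in Gr1-negative cells, 26 of the 77 genes were lower at day 8 than at day 1 and none was higher, where 9.77% of all genes and 17.9% of genes at or above the median signal were lower and 8.68% of all genes were higher. The median difference was -0.31, against -0.02 over all genes and -0.05 over genes at or above the median signal. Both subunits took part, with 19 of 50 large subunit and 7 of 26 small subunit genes lower, and so did both origins, with 11 of 45 genes with a bacterial homologue and 11 of 26 mitochondria-specific genes.

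Mrpl52, a mitochondria-specific large subunit protein, read 11.24, 11.25 and 11.04 at day 1 and 10.48, 10.15 and 10.04 at day 8. It fell by 0.95 on the log2 scale (SE 0.15, adjusted p = 0.000197), about 1.94-fold, and its day 4 arrays (10.53, 10.88 and 10.44) lay between those of days 1 and 8 but for an overlap with day 8. Mrpl20 went from 9.18, 9.34 and 8.84 to 8.36, 8.03 and 8.25 and fell by 0.91 (SE 0.17, adjusted p = 0.000694). Mrps18b went from 10.34, 10.32 and 10.19 to 9.63, 9.33 and 9.40 and fell by 0.83 (SE 0.14, adjusted p = 0.000470). In all 3 genes the days did not overlap. Mrps28 fell by 0.72 (SE 0.13), nearly all of it before day 4: its day 8 arrays read 8.15, 7.95 and 8.10, within the range of day 4. Mrpl39 read 10.65, 10.67 and 10.72 at day 1, 10.90, 10.92 and 10.97 at day 2 and 10.25, 10.22 and 10.30 at day 8, the tightest of these courses, and fell by 0.42 (SE 0.09, adjusted p = 0.00198). Mrpl57, which like Mrpl39 carries the NRF1 letters shown above, went from 9.05, 9.34 and 9.14 to 8.67, 8.52 and 8.70 and fell by 0.54 (SE 0.12, adjusted p = 0.00275).

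Of the members with other roles, Mrpl58 fell by 0.49 (SE 0.16, adjusted p = 0.0408) from day 1 to day 8. Mrps30 differed by -0.34 ± 0.15 (adjusted p = 0.144), Mrpl12 by -0.34 ± 0.14 (adjusted p = 0.111) and Mrps36 by -0.10 ± 0.25 (adjusted p = 0.848). The Mrps36 arrays of day 1 lay far apart, with 7.39, 8.49 and 8.08. Over the family, all day 8 arrays lay below all day 1 arrays in 39 genes (50.6%), against 16.9% of all genes and 27.4% of genes at or above the median signal. They lay above them in 0, against 13.8% and 18.5%. The 26 calls became 12 without the day 1 array numbered 2 and 14 without the day 8 array numbered 2, and 12 genes kept the call under each alternative tried: Mrpl15, Mrpl19, Mrpl20, Mrpl33, Mrpl35, Mrpl38, Mrpl39, Mrpl52, Mrpl54, Mrpl57, Mrps18b and Mrps28. Among the 20 of the 26 genes with a promoter window, 12 held the ETS letters and 5 the NRF1 letters, and among the 48 others 12 and 8, as a description.

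**Figure D3:**
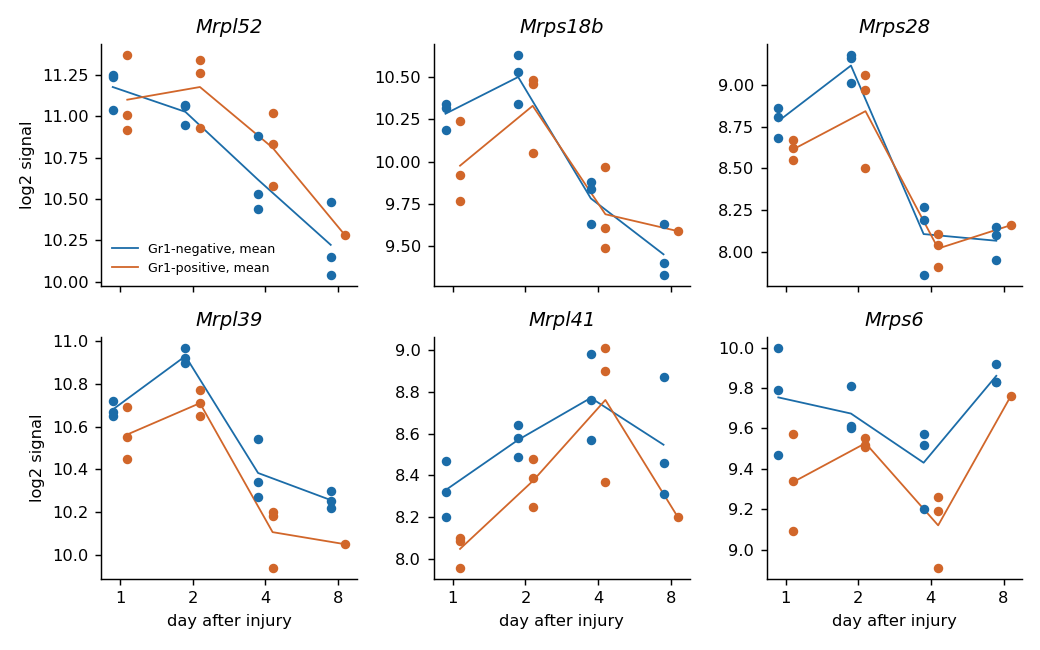
Log2 signal of 6 members on each array (points) by day after injury, with the days evenly spaced and lines through the group means of Gr1-negative (blue) and Gr1-positive (orange) cells. Mrpl52, Mrps18b, Mrps28 and Mrpl39 end below their day 1 arrays, while Mrps6 and Mrpl41 do not in Gr1-negative cells.

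**Figure D4:**
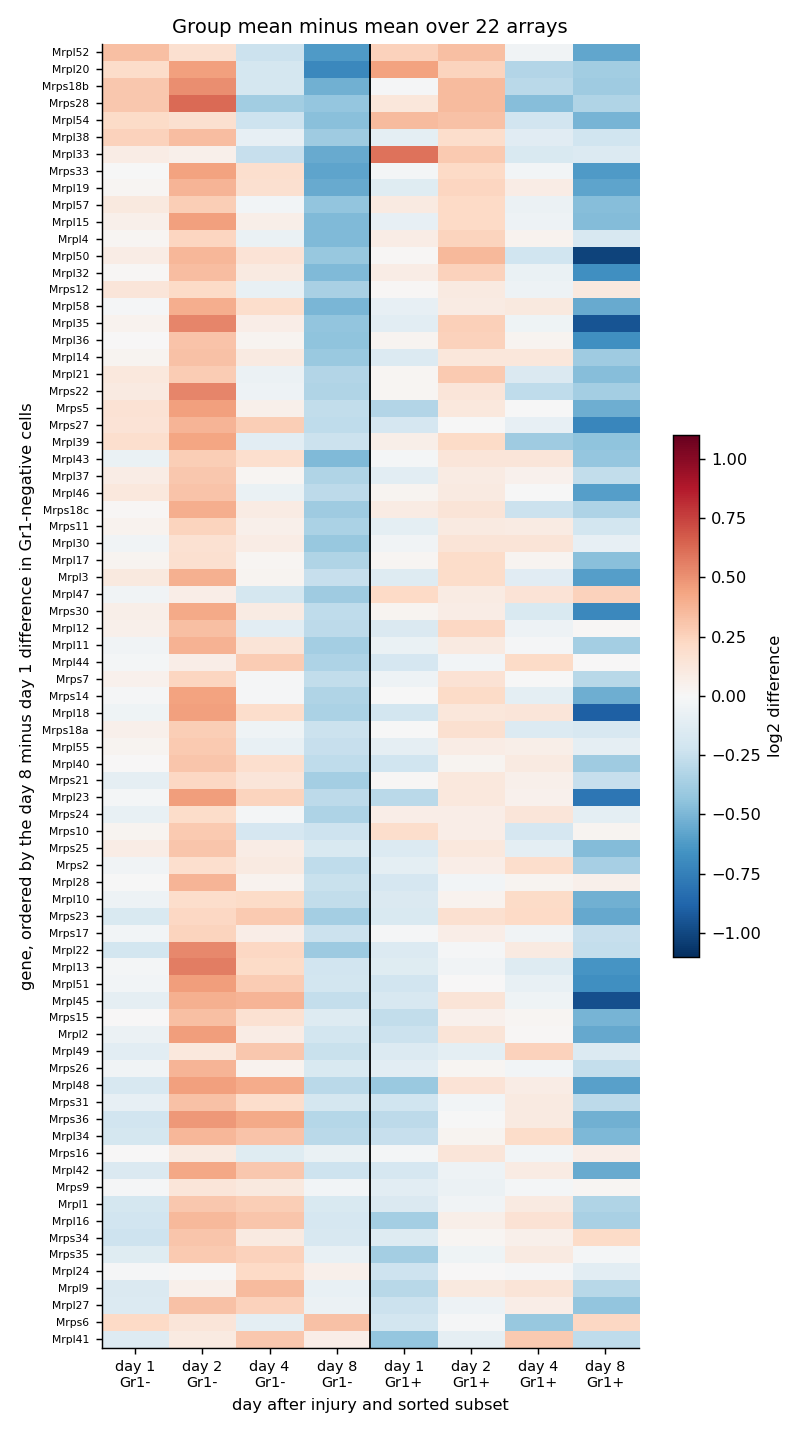
Group mean minus the mean over all 22 arrays for each of the 77 genes (rows, ordered by the day 8 minus day 1 difference in Gr1-negative cells) in the 8 groups (columns). The Gr1-negative day 2 column is mostly red and both day 8 columns are mostly blue, the last of them from 1 array.

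Between day 1 and day 4 the family split. In Gr1-negative cells 10 genes rose and 6 fell, where 15.5% of all genes rose and 8.67% fell, and in Gr1-positive cells 9 rose and 6 fell, where 16.2% rose and 9.42% fell, so that neither share stood above that of all genes. In Gr1-negative cells Mrpl48 rose by 0.58 ± 0.17 (adjusted p = 0.0136), Mrpl16 by 0.52 ± 0.14 (adjusted p = 0.00971) and Mrpl34, a large subunit protein, by 0.51 ± 0.17 (adjusted p = 0.0336). Mrps28 fell by 0.68 (SE 0.13, adjusted p = 0.000507), Mrpl52 by 0.56 (SE 0.15, adjusted p = 0.00979) and Mrps18b by 0.50 (SE 0.14, adjusted p = 0.0161). With each array centred on its median the split was 7 higher and 2 lower, and after a further quantile normalization 9 and 12. Without the day 1 or the day 4 array numbered 1, 8 genes passed, and 10 without the day 4 array numbered 2.

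In Gr1-positive cells Mrpl41, a mitochondria-specific large subunit protein, went from 8.10, 8.09 and 7.96 at day 1 to 9.01, 8.90 and 8.37 at day 4 and rose by 0.71 ± 0.15 (adjusted p = 0.00165). Its second probe set, for which the same question was not tested, rose by 0.54 ± 0.11 (adjusted p = 0.000912). Mrpl16 rose by 0.53 ± 0.14 (adjusted p = 0.00792) and Mrpl48 by 0.49 ± 0.17 (adjusted p = 0.0339). Mrpl33, a small zinc-binding type of large subunit protein in bacteria, went from 8.88, 8.54 and 8.62 to 7.84, 8.09 and 7.84 and fell by 0.76 (SE 0.12, adjusted p = 9.48e-05). Mrpl20 fell by 0.77 (SE 0.17, adjusted p = 0.00164) and Mrps28 by 0.60 (SE 0.13, adjusted p = 0.00143). The subsets shared 7 rising genes (70.0% of 10 and 77.8% of 9) and 4 falling genes (66.7% of 6 in each). Over all genes the shares were 76.9% and 73.6% for rising and 70.1% and 64.4% for falling genes, so the overlap was near that of all genes. Of the 77, 0 passed for a change of the subset difference between these days (limma; 1 higher and 0 lower at an unadjusted p under 0.05; 0.0351% of all genes higher and 0.0602% lower). The split was 4 higher and 6 lower with arrays centred, and 11 and 10 after quantile normalization, and 9 genes passed without the day 1 array numbered 1 or the day 4 array numbered 2.

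Between the sorted subsets of the same day the differences were small, and most members read higher in Gr1-negative cells. With array numbers set aside, none of the 77 genes passed at day 1, 2 or 4 (limma). Over all genes 0.682%, 2.85% and 0.547% were higher in Gr1-negative cells and 0.176%, 0.682% and 0.171% lower. Among genes at or above the median signal 1.21%, 4.89% and 0.512% were higher and 0.261%, 1.17% and 0.181% lower. At an unadjusted p under 0.05, 7, 18 and 6 members were higher, against 6.13%, 12.3% and 6.72% of all genes, and 1, 0 and 0 lower, against 2.53%, 5.24% and 5.18%. For these unadjusted counts the shares among genes at or above the median signal were not taken. The difference was above 0 in 59, 68 and 57 of the 77 (76.6%, 88.3% and 74%), against 57.6%, 65.4% and 59.6% of genes at or above the median signal. The median differences were 0.09, 0.21 and 0.09, against 0.03, 0.08 and 0.05 over those genes. All Gr1-negative arrays of day 2 lay above all Gr1-positive ones in 13 members (16.9%), against 12.9% of all genes. Among genes at or above the median signal this share was 21.1%, so the members stood below genes of like signal. At days 1 and 4 the members' share was above that of genes of like signal. The SE of a single member's difference was between 0.08 and 0.29, with a median of 0.14. Without the Gr1-positive day 2 array numbered 2, 4 genes passed at day 2, and without the Gr1-negative day 1 array numbered 3, 1 passed at day 1.

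Arrays of the 2 subsets that carry the same number deviated together within days 2 and 4, so differences were also taken within numbers. Day 2 then gave 14 genes (18.2%) higher in Gr1-negative cells and none lower, where 9.76% of all genes were higher and 2.15% lower. Day 4 gave 3 (3.9%) higher and none lower, where 2.62% were higher and 0.913% lower. The shares among genes at or above the median signal were not taken for this fit. The genes named next were chosen after their values were seen. Mrpl13, a large subunit protein with a bacterial homologue, read 8.87, 8.97 and 9.09 in Gr1-negative and 8.07, 8.65 and 8.42 in Gr1-positive cells of day 2 (difference 0.60 ± 0.17, adjusted p = 0.0654, and 0.00459 within numbers). Mrpl51, specific to mitochondria, read 9.16, 9.68 and 9.72 against 8.65, 9.27 and 9.26 (0.46 ± 0.18, adjusted p = 0.181, and 0.00184 within numbers). In Mrpl51 the array numbered 1 was the lowest in both subsets, and a second probe set differed by 0.58 ± 0.20 (adjusted p = 0.123). At day 4 the 3 genes were Mrpl45, Mrpl51 and Mrps27. Gr1-negative arrays were above their same-numbered partners in all 3 pairs in 48 genes (62.3%) at day 2, against 27.2% of all genes and 45.3% of genes at or above the median signal. At day 4 this held for 27 genes (35.1%), against 22.6% and 36.1%, which is no more than among genes of like signal. In the other direction, Mrpl33 was lower in Gr1-negative cells of day 1, with 7.99, 8.12 and 8.41 against 8.88, 8.54 and 8.62 (-0.51 ± 0.12, adjusted p = 0.0530), just short of the threshold with numbers set aside. Within numbers, day 1 gave 4 genes higher and 1 lower, where 3% of all genes were higher and 0.747% lower. The 1 lower gene was Mrpl33 (limma, adjusted p = 0.0248). Pairing was not established at day 1.

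The single Gr1-positive array of day 8 was low for most members. Its signal was below all 3 day 1 arrays of the subset in 54 genes (70.1%), against 33.3% of all genes and 41.3% of genes at or above the median signal. It was below all 3 day 4 arrays in 58 (75.3%), against 37.1% and 50.8%. The median difference from the day 1 mean was -0.25, with 62 genes below 0, and from the day 4 mean -0.41, with 66 below 0, against -0.0021 and -0.03 over all genes. Mrpl50, a mitochondria-specific large subunit protein chosen after its values were seen, read 7.61 against 8.72, 8.81 and 8.41 at day 1. Mrpl52 read 10.28, Mrpl39 10.05 and Mrps18b 9.59 on that array, each below its day 1 arrays. There is no replicate check for these values.

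Mrps6 departed from the family's course. A small subunit protein with a bacterial homologue, it read 9.79, 10 and 9.47 in Gr1-negative cells at day 1, 9.57, 9.52 and 9.20 at day 4 and 9.83, 9.83 and 9.92 at day 8. It was the only member with its highest Gr1-negative mean at day 8 and the only one with all day 8 arrays above all day 4 arrays. The difference from day 4 to day 8 was 0.43 ± 0.14 (adjusted p = 0.0521). In Gr1-positive cells it fell by 0.41 from day 2 to day 4 (SE 0.14, adjusted p = 0.0443), from 9.51, 9.55 and 9.52 to 9.19, 9.26 and 8.91, and stood at 9.76 on the day 8 array. Mrpl41 differed by 0.22 ± 0.15 between days 1 and 8 in Gr1-negative cells (adjusted p = 0.394), and its second probe set by 0.32 ± 0.11 (adjusted p = 0.0452). Mrps5 has 2 probe sets as well, at -0.43 ± 0.16 (adjusted p = 0.0774) and -0.54 ± 0.14 (adjusted p = 0.0106), so its call depends on the probe set.

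Over the 22 arrays, members moved with one another. Pearson's r of a member with the mean of the other 76 had a median of 0.84 and was over 0.5 in 71 of 77 genes (92.2%), against 29.1% of the 9893 other genes at or above the median signal. It was highest for Mrps33 (0.96), and lowest for Mrps6 (-0.07), Mrpl33 (0.35) and Mrpl41 (0.36), followed by Mrpl47, Mrpl24 and Mrps16. The arrays share days, subsets and processing, so this is a description. The 5 other genes most like the family mean were Cops6, a subunit of the COP9 signalosome (r = 0.97), Atpaf2, an assembly factor of ATP synthase (0.97), Coa3, an assembly factor of cytochrome c oxidase (0.97), Atp5j2, a subunit of ATP synthase (0.97), and Ndufv1, a subunit of complex I (0.96). By list, the median r with the family mean was 0.87 for 34 complex I subunits, 0.59 for 21 mitochondrial tRNA synthetases and 0.30 for 59 cytosolic ribosomal proteins.

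Some genes of other parts of mitochondrial translation fell from day 4 to day 8 in Gr1-negative cells, though most of each list did not pass. Of 15 translation factors 7 fell and none rose, where 7.34% of all genes and 12.1% of genes at or above the median signal fell. Mitochondrial initiation factor Mtif3 fell by 0.64 (SE 0.15, adjusted p = 0.0131) and Slirp, which stabilizes mitochondrial messages, by 0.70 (SE 0.19, adjusted p = 0.0267). Of the tRNA synthetases and related enzymes 5 of 21 fell and none rose, among them Gatc (by 0.82, SE 0.21) and Rars2 (by 0.65, SE 0.19). Of 29 assembly and rRNA-modifying factors 8 fell and none rose, led by Tfb1m, which methylates the small subunit rRNA (by 0.98, SE 0.19, adjusted p = 0.00545), and Noa1, a GTPase of ribosome assembly (by 0.68, SE 0.17). Dap3, a small subunit protein outside the Mrps naming, fell by 0.68 from day 1 to day 8 (SE 0.12, adjusted p = 0.000663), the only 1 of 4 such genes that passed. Between these days 9.77% of all genes fell and 8.68% rose. Oxa1l, which inserts the new proteins into the inner membrane, followed another course: it rose by 0.99 ± 0.10 from day 1 to day 4 and was still 0.48 ± 0.10 higher at day 8 (adjusted p = 0.00178).

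Complex I, which holds several of the proteins made by the mitochondrial ribosome, had 15 of 34 nuclear subunits lower at day 8 than at day 1 and none higher, with a median of -0.39, and 13 lower than at day 4. Over all genes 9.77% were lower and 8.68% higher than at day 1, and 7.34% lower than at day 4. Among genes at or above the median signal, 17.9% were lower than at day 1 and 12.1% lower than at day 4. Ndufa2 fell by 0.68 (SE 0.14, adjusted p = 0.00218) and Ndufb6 by 0.67 (SE 0.15, adjusted p = 0.00415) from day 1. The cytosolic ribosome did not follow: 2 of 59 of its protein genes were lower and none was higher, with a median of 0.01. Factors that build the cytosolic ribosome fell earlier. Of 29, 22 were lower at day 8 than at day 1 and none was higher, and 18 had fallen between day 2 and day 4 while 1 rose and none fell from day 4 to day 8. Between day 2 and day 4, 6.69% of all genes and 12.1% of genes at or above the median signal fell. From day 4 to day 8, 3.17% of all genes rose. Among them Mrto4 fell by 1.27 (SE 0.18) and Rrp1b by 1.18 (SE 0.17) from day 1 to day 8.

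Of 12 regulators of mitochondrial genes, Pprc1, a coactivator of the PGC-1 family, fell by 0.60 from day 1 to day 8 (SE 0.13, adjusted p = 0.00307), while Ppargc1b of the same family rose by 0.36 ± 0.10 (adjusted p = 0.0188) and Myc by 0.76 ± 0.18 (adjusted p = 0.00482). Gabpb1, a subunit of GABP, fell from day 2 to day 4 in both subsets, by 0.50 (SE 0.13, adjusted p = 0.0143) in Gr1-negative and by 0.64 (SE 0.13, adjusted p = 0.00173) in Gr1-positive cells.

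**Figure D5:**
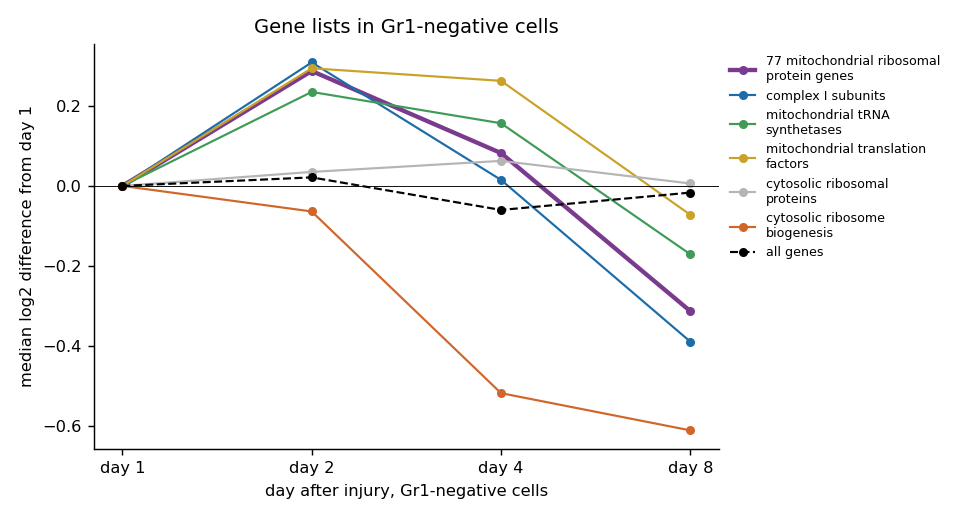
Median log2 difference from day 1 over the genes of each list in Gr1-negative cells at days 2, 4 and 8. At day 8 the 77 genes stand at -0.31, complex I subunits at -0.39, cytosolic ribosome biogenesis factors at -0.61 and cytosolic ribosomal proteins at 0.01.

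Markers of other cells moved over the same days in Gr1-negative cells. Between day 1 and day 8, 8 of 11 muscle markers rose (mean over the list 6.89 to 7.18 on the day 1 arrays and 7.47 to 7.82 on those of day 8), led by Acta1 and Des. T and NK cell markers rose in 5 of 8 (7.18 to 7.53, then 8.40 to 9.41), fibroblast markers in 5 of 7 (6.57 to 6.99, then 7.46 to 10.12) and B cell markers in 2 of 4. Neutrophil markers fell in 3 of 11 (7.07 to 7.41, then 6.45 to 6.62). Endothelial markers fell in 2 of 5, dendritic markers rose in 1 of 8, and none of 6 mast cell and eosinophil markers nor the 1 red cell marker passed. Over all genes 8.68% rose and 9.77% fell between these days. Cell cycle genes rose in 11 of 19 from day 1 to day 8 but fell in 9 from day 4 to day 8, where 7.34% of all genes fell. At day 2, 14 of the 19 were higher in Gr1-negative than in Gr1-positive cells, where 2.85% of all genes were. In Gr1-positive cells the mean of the T and NK list was 6.33 at day 1, 6.42 at day 2 and 8.88 at day 4. That of the dendritic list was 7.38, 7.56 and 8.94, and that of the neutrophil list 7.93, 7.57 and 6.97. The mast cell and eosinophil list stood at 6.56, 6.64 and 6.66. The part of these cells and genes in the differences of the ribosomal protein genes was not tested in either subset.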

How the data were processed

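The authors deposited a table of log2 signals of 35556 probe sets on 22 Affymetrix arrays of sorted mouse cells, made with RMA per the submitters' processing notes; its version and the probe-level settings are not given in the sources used here. Each column was matched to a label by its name. Of the probe sets, 12146 have no gene name in the annotation given and 1621 name several genes and were left out, which removed Mrpl53. The 21789 others, of which 21698 were matched by Entrez number to RefSeq names (GRCm38.p6), gave 19938 genes, with the highest mean kept per gene. RMA compresses differences at low signal. For the 8 members with 2 probe sets it was not tested whether 1 of them reads a copy elsewhere in the genome. Nor was this tested for members with 1 probe set, such as Mrpl48. The number of arrays limits the precision.

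limma 3.58.1 in R 4.3.3 estimated the 8 group means from the 22 arrays together (eBayes, no trend, Benjamini-Hochberg over all genes, adjusted p under 0.05). The script was tested on simulated data for day 8 against day 1 in Gr1-negative cells. There 45% of 100 changes of 0.5 and 92% of 100 changes of 1 on the log2 scale passed. A change of 0.5 can thus often go uncalled. P-values measure the spread between arrays of a group. Where gene values follow one another, the adjusted p is that of limma. Members named are, per comparison and direction, the 3 with the largest difference among those past the threshold, those with the highest and lowest means, the Mrps18 paralogues and members with other roles, and for other lists up to 2 a direction. Members named outside this rule, among them Mrps6, Mrps5, Mrpl57, Mrpl13, Mrpl50 and Mrpl51, were chosen after their values were seen. The members and lists were chosen with earlier results of these data known. Alternatives were a second quantile normalization, centring, a filter at the median signal, the mean of probe sets, trend with robust variances, array weights, only the groups compared, a replicate block, no day 2 arrays numbered 1, and each array left out. The labels give the same replicate numbers to both subsets of a day. Deviations from group means, over all genes, correlated at 0.412 to 0.646 between same-numbered arrays at day 2 and 0.501 to 0.637 at day 4, so the block is printed beside those subset differences. At day 1 they correlated at 0.0981 to 0.381, with 2 of 3 over the limit of 0.1, and were not taken as paired. Nor were numbers across days, where 7 of 15 exceeded 0.1. The same-numbered array was the best match in 9 of 9 pairs within a day, day 1 included, and in 5 of 15 across days. Promoters were searched as plain letters. Python 3.11.15 and matplotlib 3.10.9 drew the figures.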

Additional observations from a re-analysis of the deposited data

How the results depend on the processing

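No called value of a member changed sign. Of 1628 values of called members under alternatives, 1259 kept their call and 369 lost it. Counts of called members moved over 1.5 times as follows. They are given without the share of all genes called under the same alternative. They show how far the calls depend on the processing, not how the members compare with other genes. The same holds for the counts in the Results with arrays left out, centred or normalized again. A second quantile normalization gave 19 (Gr1-negative) and 20 (Gr1-positive) from day 2 to 4, and 1 between subsets at day 1. Centring gave 3 from day 1 to 2, 7 from day 2 to 4 and 9 from day 1 to 4 in Gr1-negative cells, and 6 from day 2 to 4 in Gr1-positive cells. Array weights gave 28, 45 and 45 for the steps to days 2, 4 and 8 in Gr1-negative cells, 26 and 29 for the steps to days 2 and 4 in Gr1-positive cells, and 8 between subsets at day 2. The filter gave 1 and 2 between subsets at days 1 and 2, and fitting only the groups compared gave 4 from day 2 to 4 in Gr1-positive cells. The replicate block gave 5, 14 and 3 between subsets at days 1, 2 and 4 (pairing was not established at day 1) and 13 from day 1 to 2 in Gr1-negative cells, and numbers across days share only a number. Without both day 2 arrays numbered 1, the counts were 28 and 22 for the steps from day 1 and to day 4 in Gr1-negative cells and 22 and 23 in Gr1-positive cells, with Gr1-positive medians of 0.373 and -0.275. Leaving out 1 array at a time gave, between subsets, 0 to 1 at day 1 and 0 to 4 at day 2. In Gr1-negative cells it gave 0 to 15 from day 1 to 2, 5 to 11 from day 2 to 4, 5 to 33 from day 4 to 8, 8 to 14 from day 1 to 4 and 12 to 24 from day 1 to 8. In Gr1-positive cells it gave 0 to 17 (median 0.103 to 0.373) from day 1 to 2, 4 to 23 (median -0.275 to 0.0311) from day 2 to 4 and 9 to 13 from day 1 to 4. Where an array was left out, its group of 2 shared the spread of all groups. The causes were not tested. Calls kept under each alternative numbered 0 of 8 for Gr1-negative day 1 to 2, 5 of 12 for day 2 to 4, 5 of 25 for day 4 to 8, 5 of 16 for day 1 to 4 and 12 of 26 for day 1 to 8, and 3 of 12 and 7 of 15 for Gr1-positive day 2 to 4 and day 1 to 4.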
